A study of Mus musculus with 8 samples.

Results

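The small heat shock proteins Hspb1, Hspb2, Hspb3, Hspb6, Hspb7, Hspb8 and Cryab, with the cochaperone Bag3, were followed in mouse heart ventricle. They were taken by gene symbol, 8 of the 37982 genes listed, and each symbol belonged to 1 gene ID. Ventricles came from C57BL/6 pups at postnatal day 7, after the atria were cut away, and the labels give 3 triple mutant, 3 double mutant and 2 wild type samples. As known from the study, the double mutants carry altered Mkl2 (a coactivator of serum response factor) and Myh7 (beta myosin heavy chain), and the triple mutants carry both plus altered Nkx2-5, a homeodomain factor of heart muscle that is the modifier under study. The labels spell out neither the alleles, nor the cells in which they act, nor the sex of the pups. The values are the authors' FPKM (fragments scaled to transcript length and library size), 1 per gene and group, so no spread between pups could be computed and read depth is unknown. A gene was called where the authors' Cuffdiff q-value was under 0.05.

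Small heat shock proteins are chaperones that work without ATP. A shared alpha-crystallin domain lets them assemble into oligomers, which hold unfolding proteins until the Hsp70 machinery can refold or discard them. Striated muscle holds them in large amounts, at Z-discs and on desmin and actin filaments. Bag3 is a nucleotide exchange factor that ties Hspb8 to Hsp70 and passes damaged Z-disc proteins to autophagy, and in humans mutations of CRYAB and BAG3 cause myofibrillar myopathy and cardiomyopathy. Heat shock factor turns on several of these genes through heat shock elements, inverted GAA units separated by a pair of bases.

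The promoters are shown first, because the choice of genes by symbol did not use their sequence. Several of these genes are known targets of heat shock factor, so the shares below are a description and not a test. RefSeq windows of GRCm38.p6, running from 250 bases before a start to 50 after it, were at hand for 6 of the 8 genes (7 windows, since Hspb6 has 2 annotated starts). The pair GAANNTTC, which reads the same on both strands, was in 5 of the 7 windows, against 7.86% of 32851 windows of all genes. These windows belonged to 5 of the 6 genes. In 4 of them (Hspb1, Hspb6, Hspb8 and Bag3) the match was the same octamer on the gene's own strand, and 1.21% of all windows held that octamer on either strand, a version singled out after the matches were seen. The capitals below mark the matches, and Hspb1 and Hspb6 are shown over the whole stretch before the start because Hspb1 was called and Hspb6 had nearly equal levels in the 3 groups.
Hspb1, chr5:135887669-135887918, plus strand: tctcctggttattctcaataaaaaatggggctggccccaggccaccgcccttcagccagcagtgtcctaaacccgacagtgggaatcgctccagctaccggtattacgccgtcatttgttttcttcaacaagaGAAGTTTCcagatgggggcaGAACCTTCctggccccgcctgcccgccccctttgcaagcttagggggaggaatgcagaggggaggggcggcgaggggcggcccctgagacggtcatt
Hspb6, chr7:30553051-30553300, plus strand, second start: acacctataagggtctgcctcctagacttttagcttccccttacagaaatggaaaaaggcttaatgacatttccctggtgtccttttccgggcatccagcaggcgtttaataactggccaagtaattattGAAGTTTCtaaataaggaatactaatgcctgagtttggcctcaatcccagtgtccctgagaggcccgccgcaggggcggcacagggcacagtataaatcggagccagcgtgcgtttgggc
Bag3, chr7:128523603-128523632, plus strand: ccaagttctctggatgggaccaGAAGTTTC
Hspb8, chr5:116422844-116422873, minus strand: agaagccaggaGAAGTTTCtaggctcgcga
Hspb3, chr13:113663882-113663911, minus strand: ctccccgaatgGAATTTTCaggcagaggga

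Counted from the transcription start, the 2 pairs of Hspb1 began at -117 and -97. The pair began at -120 in Hspb6 and at -224 in Hspb3, while in Hspb8 it began at base 3 and in Bag3 at base 43 of the transcript. Hspb7 had none in its window. The opposite arrangement TTCNNGAA (8.52% of all windows), 3 alternating units with the same spacing (0.603%), the CArG box of serum response factor (1.63%) and the Nkx2-5 site TNAAGTG on either strand (11.5%) were in none of the 7 windows. A match is a string of letters and does not show that a factor binds. The octamer stood in the genes called below (Hspb1, Bag3) and in genes that were not called (Hspb6, Hspb8).

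**Figure D1:**
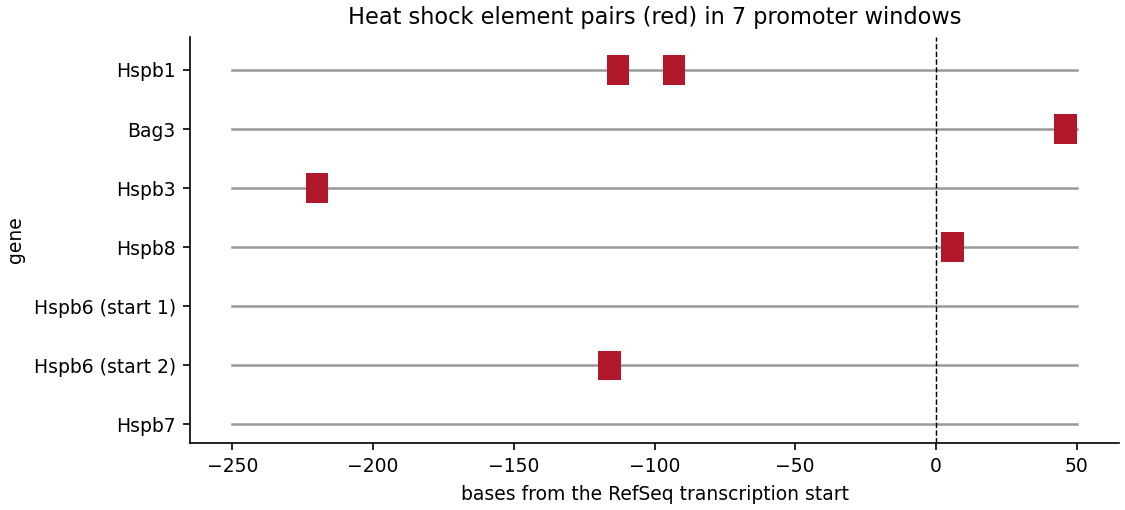
Positions of the heat shock pair GAANNTTC (red boxes, drawn to scale) in the 7 RefSeq promoter windows; the x axis gives bases from the start (dashed line), and each grey line is 1 window. Hspb1 holds 2 pairs, Hspb3, Hspb6 (second start), Hspb8 and Bag3 hold 1 each, and Hspb7 and the first Hspb6 start hold none.

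The levels of the 7 measured genes spanned a wide range, with the same 2 genes on top in every group. Cryab (alpha B-crystallin, ENSMUSG00000032060, mm9 chromosome 9, 50560863 to 50564738) had an FPKM of 428 in the triple mutant, 446 in the double mutant and 365 in wild type. Hspb6 (Hsp20, a target of cyclic nucleotide kinases, ENSMUSG00000036854, chromosome 7, 31324153 to 31344857) had 398 in the triple mutant, 402 in the double mutant and 402 in wild type. The file lists that Hspb6 locus for Lin37 and BC053749 as well, so the counting could have split or joined reads there. Cryab thus stood above Hspb6 in both mutants and below it in wild type, an order that was not tested. Among the 13616 genes with an estimated FPKM of at least 1 in the triple mutant, Cryab ranked 47 and Hspb6 58. That ranking leaves out genes with too many fragments for an estimate (709 genes in at least 1 comparison, most cardiomyocyte markers among them), so these ranks hold among the estimated genes alone.

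Bag3, Hspb8 and Hspb1 formed a middle tier. Bag3 (ENSMUSG00000030847, chromosome 7, 135667097 to 135690491) had an FPKM of 87.5 in the triple mutant, 103 in the double mutant and 75.0 in wild type. Its chaperone partner Hspb8 (ENSMUSG00000041548, chromosome 5, 116858500 to 116872873) had 75.7 in the triple mutant, 85.6 in the double mutant and 86.1 in wild type. Bag3 was therefore the higher of the partners in both mutants and the lower one in wild type. Hspb1 (Hsp27, which binds actin and is phosphorylated under stress, ENSMUSG00000004951, chromosome 5, 136363789 to 136365433) had 57.8 in the triple mutant, 61.3 in the double mutant and 36.7 in wild type. Both mutant values of Hspb1 lay well above the wild type value and close to each other.

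Hspb2 and Hspb3, which form a complex with each other in muscle, were the lowest of the 7 measured members. Hspb2 (ENSMUSG00000038086, chromosome 9, 50559177 to 50560459) had an FPKM of 26.6 in the triple mutant, 29.5 in the double mutant and 20.2 in wild type. Hspb3 (ENSMUSG00000051456, chromosome 13, 114453104 to 114453884) had 8.91 in the triple mutant, 12.5 in the double mutant and 9.84 in wild type. Hspb7 (ENSMUSG00000006221, chromosome 4, 140976694 to 140981226), a heart chaperone that acts on thin filaments, is listed at 0 in all 3 groups with a status that flags more fragments than Cuffdiff would estimate from, and no level of it can be given. The summed FPKM of the 7 measured genes was 1082 in the triple mutant, 1140 in the double mutant and 995 in wild type, and Cryab and Hspb6 made up 39.5% and 36.8% of it in the triple mutant against 36.7% and 40.4% in wild type.

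**Figure D2:**
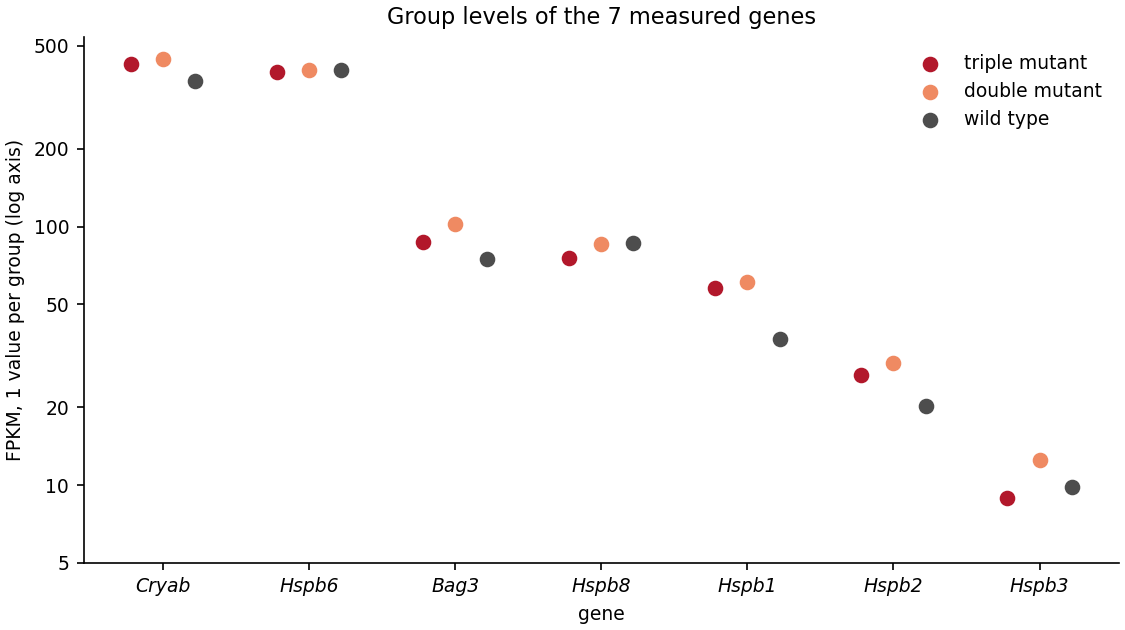
FPKM (log axis) of the 7 measured genes in triple mutant, double mutant and wild type ventricles, 1 point per group with no error bar because the file holds 1 value per group. Hspb1 is at 57.8 and 61.3 in the mutants against 36.7 in wild type, and Hspb6 is at 398 to 402 in every group.

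Triple mutant ventricles were set against wild type ones to find genes altered in the diseased state. Hspb1 was the member called: it rose 1.57-fold in triple mutants, per the authors' deposited table (log2 fold change 0.65, q = 0.0066). A q-value of 0.0066 is the lowest among the deposited values, so genes that share it cannot be ranked by it. The call was 1 of 7 tested members, against 1.52% of all 12986 tested genes (1.16% higher and 0.362% lower). The median log2 fold change of the 7 genes was 0.22, against -0.0026 over all tested genes, with 4 positive and 3 negative. Hspb1 and Hspb2 made 2 members with an unadjusted p-value under 0.05, against 1566 of 12926 tested genes with a finite fold change.

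The other members were not called, and their values spread on both sides of zero. Hspb2 had a log2 fold change of 0.40 in the authors' deposited table (q = 0.327), with an interval of -0.23 to 1.03. Cryab had 0.23 there (q = 0.52) and Bag3 0.22 (q = 0.525), each with an interval that reaches below zero, and the authors' deposited table lists Hspb8 at -0.19 (q = 0.678), Hspb3 at -0.14 (q = 0.915) and Hspb6 at -0.017 (q = 0.987). The interval of Hspb6 ran from -0.50 to 0.47. These 95% intervals were made from the fold change and the statistic in the authors' deposited table. Whether Hspb1 changed more than another member was not tested.

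Triple and double mutants were compared to find genes that change with the Nkx2-5 modifier. Cuffdiff called 0 of 7 members there, against 1.25% of 12786 tested genes (0.704% higher and 0.547% lower), and 1 member had an unadjusted p-value under 0.05, against 1079 of 12773 tested genes with a finite fold change. All 7 log2 fold changes were negative, with a median of -0.15 against -0.0011 over all tested genes. The lowest was Hspb3 at -0.49 in the authors' deposited table (Cuffdiff p = 0.0321, q = 0.332, interval -1.25 to 0.28). Bag3 followed at -0.23 (q = 0.5), Hspb8 at -0.18 (q = 0.722) and Hspb2 at -0.15 (q = 0.86), and the authors' deposited table lists Hspb1 at -0.083 (q = 0.933), Cryab at -0.062 (q = 0.945) and Hspb6 at -0.016 (q = 0.987). For Hspb1 the interval of -0.62 to 0.46 covers a change in either direction.

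Double mutant ventricles were also set against wild type ones, a comparison the authors' file holds. Hspb1 and Bag3 were called, both higher in the double mutant: Hspb1 rose 1.67-fold in the authors' deposited table (log2 fold change 0.74, q = 0.0066) and Bag3 1.37-fold (0.45, q = 0.0496). The calls were 2 of 7, against 2.65% of 13034 tested genes (1.89% higher and 0.767% lower), and the q-value of Bag3 lies just inside the threshold. The median over the 7 genes was 0.34, against -0.0030 over all tested genes, with 5 positive and 2 negative. An unadjusted p-value under 0.05 was found for 4 of the 7 (Hspb1, Bag3, Hspb2 and Cryab), against 2114 of 12976 tested genes with a finite fold change.

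Hspb2 came next at 0.55 in the authors' deposited table (Cuffdiff p = 0.00335, q = 0.105), just outside 0.1, the q-value below which the file marks a gene as significant. At that looser mark the members called were the same in number in each comparison, against 2.75%, 1.98% and 4.41% of tested genes for triple mutant over wild type, triple over double mutant and double mutant over wild type. Hspb3 had 0.34 (q = 0.577) and Cryab 0.29 (Cuffdiff p = 0.0337, q = 0.337) in the authors' deposited table, neither of them called. The remaining pair had values near zero: Hspb8 had a log2 fold change of -0.0094 (q = 0.991) and Hspb6 of -0.00022 (q = 0.999) in the authors' deposited table. Their intervals from the statistic, -0.48 to 0.46 for Hspb8 and -0.48 to 0.48 for Hspb6, reach the log2 fold change of Bag3. On that scale the interval of Bag3 itself reaches just below zero. The deposited p-values, which gave the Bag3 call, imply smaller standard errors. For Hspb8 they imply 0.136 against 0.241 from the statistic, and for Hspb6 0.122 against 0.243. Each group enters a pair of the comparisons, the wild type value both of those against wild type, so their values are not independent of each other.

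The deposited p-values are smaller than the deposited statistics would give on a normal scale, and this decides the calls. For Hspb1 in the triple mutant the statistic of 2.32 corresponds to a two-sided normal p of 0.0205, where the authors' deposited table has 5e-05. With q-values remade from the statistics, neither Hspb1 nor Bag3 was called (q = 0.999957 each), and calls over all tested genes came to 5 (0.0385%) for triple mutant over wild type, 4 (0.0313%) for triple over double mutant and 9 (0.0691%) for double mutant over wild type.

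**Figure D3:**
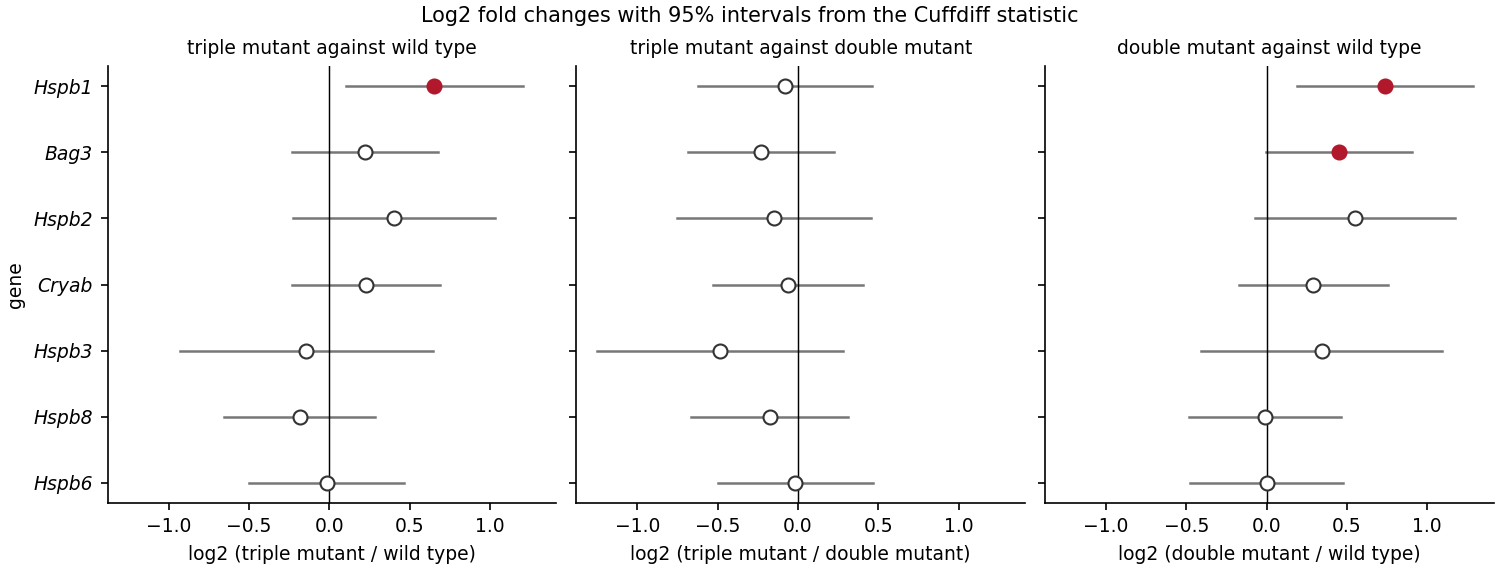
Log2 fold changes of the 7 measured genes in the 3 comparisons (x axis; first-named genotype over the other) with 95% intervals made from the deposited Cuffdiff statistic; red points have a q-value under 0.05. Hspb1 is called at 0.65 in triple mutant against wild type and at 0.74 in double mutant against wild type, and Bag3 at 0.45 in double mutant against wild type, where its interval reaches just below zero.

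Hspb2 and Cryab are neighbours that point away from each other on chromosome 9, with 403 bases between their loci in the file. Both had positive log2 fold changes in each mutant against wild type and negative ones in triple against double mutant, and neither was called. In GENCODE M21, unlike in the file, the whole spans of these genes, introns included, overlap by 1030 bases on opposite strands. The library kit was stranded, but whether counting used strand is not given in the sources used here, so reads of the overlap may not be told apart.

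The wider pathway was read from lists of cochaperones, clients and inducible chaperones. Of 5 other BAG cochaperones, 1 was called in each mutant against wild type (against 1.52% of all tested genes for the triple and 2.65% for the double mutant). It was Bag1, a cochaperone of Hsp70 that links it to the proteasome. Bag1 had an FPKM of 35.3 in the triple mutant, 38.7 in the double mutant and 24.3 in wild type. In the authors' deposited table Bag1 rose by a log2 fold change of 0.54 in the triple (q = 0.0114) and 0.67 in the double mutant (q = 0.0066) against wild type, and had -0.13 in triple against double mutant (q = 0.817). Bag6 and Bag2, the most abundant of that list, were not called, with FPKM of 109 and 63.2 in the triple mutant, 119 and 56.1 in the double mutant and 127 and 59.4 in wild type.

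Of 13 tested heat-inducible chaperones, 1 was called in each mutant against wild type (against 1.52% of all tested genes for the triple and 2.65% for the double mutant). Cuffdiff called 0 of the 13 in triple against double mutant (against 1.25% of all tested genes). In triple mutant against wild type 4 had an unadjusted Cuffdiff p-value under 0.05, against 1566 of 12926 tested genes. There 11 log2 fold changes were positive and 2 negative. Triple against double mutant and double mutant against wild type each had 1 such p-value, against 1079 of 12773 and 2114 of 12976 tested genes. The called gene was Dnajb4, a J-domain cochaperone of Hsp70, with an FPKM of 48.0 in the triple mutant, 46.1 in the double mutant and 26.6 in wild type. Its log2 fold change in the authors' deposited table was 0.85 for the triple and 0.79 for the double mutant against wild type (q = 0.0066 each). The list had a median log2 fold change of 0.19, 0.10 and 0.11 in triple against wild type, triple against double and double against wild type. Hsp90aa1, the inducible cytosolic Hsp90, had an FPKM of 268 in the triple mutant, 183 in the double mutant and 211 in wild type. The mitochondrial chaperonin Hspd1, in a shared locus, had 160, 113 and 110 in that order of groups. Neither was called in any comparison, and the classic heat-inducible Hspa1b, which can share reads with its near-identical copy Hspa1a and is therefore uncertain, was low, at 2.22 in the triple mutant, 2.10 in the double mutant and 1.95 in wild type.

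The heat shock factors themselves were low and not called. Hsf1, the main heat-responsive factor, had an FPKM of 6.75 in the triple mutant, 5.58 in the double mutant and 6.96 in wild type, and Hsf2 had 5.71, 5.28 and 5.85 in that order, with 0 unadjusted p-values under 0.05 in any comparison. Among Bag3's partners in selective autophagy, 5 of 7 were tested, with 0 called and 0 unadjusted p-values under 0.05. Over all tested genes 1.25% to 2.65% were called across the 3 comparisons. The cargo receptor Sqstm1 had 180 in the triple mutant, 211 in the double mutant and 196 in wild type. Map1lc3a had 109, 130 and 114, and both genes lie in shared loci. Hspa8, the constitutive Hsp70, and Map1lc3b are listed at 0 under the same status as Hspb7. Of the cytoskeletal clients 3 of 5 were tested, with 0 called and 1 unadjusted p-value under 0.05, in double mutant against wild type. Des (desmin), in a shared locus, had 464 in the triple mutant, 485 in the double mutant and 449 in wild type. Capzb, the Z-disc actin cap, had 107, 112 and 87.8. A further list held 4 genes grouped with this family, without a check that each carries the alpha-crystallin domain. Cryaa and Odf1 are listed at 0, and Hspb9 was too low to be tested (0.610, 0.670 and 0.284). Hspb11, in a shared locus, had 0.601 in the triple mutant, 0.845 in the double mutant and 2.89 in wild type. In the authors' deposited table Hspb11 had log2 fold changes of -2.27 in the triple (Cuffdiff p = 0.0085, q = 0.172) and -1.77 in the double mutant (Cuffdiff p = 0.042, q = 0.374) against wild type, not called, and it was too low to be tested in triple against double mutant.

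**Figure D4:**
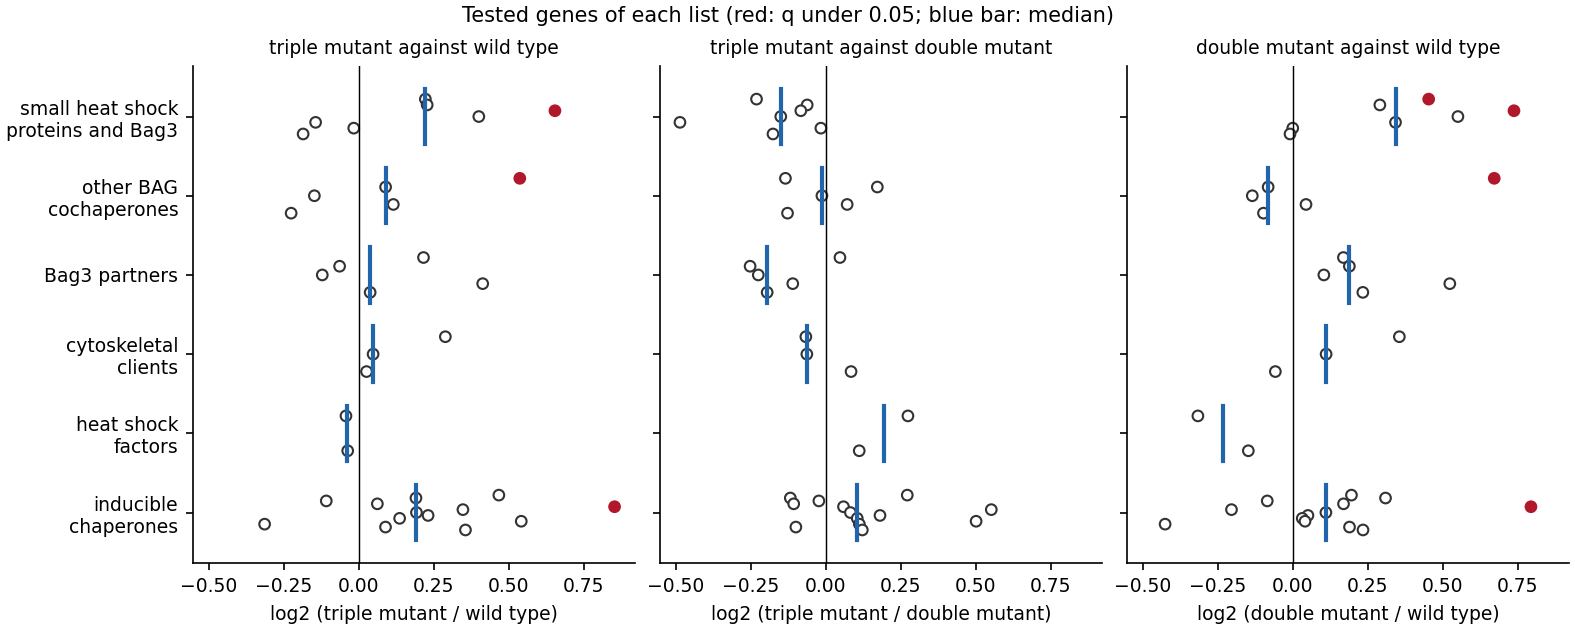
Log2 fold changes (x axis) of every tested gene in 6 lists, in the 3 comparisons; red points have a q-value under 0.05 and the blue bar is the list's median. Hspb1 and Bag3, Bag1 and Dnajb4 are the called genes, all of them higher in a mutant than in wild type, and no gene of these lists is called in triple against double mutant.

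Several features moved with these values, and their part in the result was not tested. In both comparisons with wild type, short transcripts stood above long ones: of 8 length classes, the shortest had a median log2 fold change of 0.084 and the longest of -0.072 for the triple mutant, and 0.080 and -0.094 for the double mutant. Hspb1, Hspb2, Hspb3 and Cryab lie in the shortest class, with longest transcripts of 773 to 1117 bases, while Bag3 (2562 bases) and Hspb6 (1980) lie in the third. In the shortest class 2.10% of genes were called higher in the triple and 3.69% in the double mutant against wild type, above the 1.16% and 1.89% over all tested genes. Measured against their own class, the 7 genes kept positive medians of 0.14 in the triple and 0.26 in the double mutant against wild type.

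**Figure D5:**
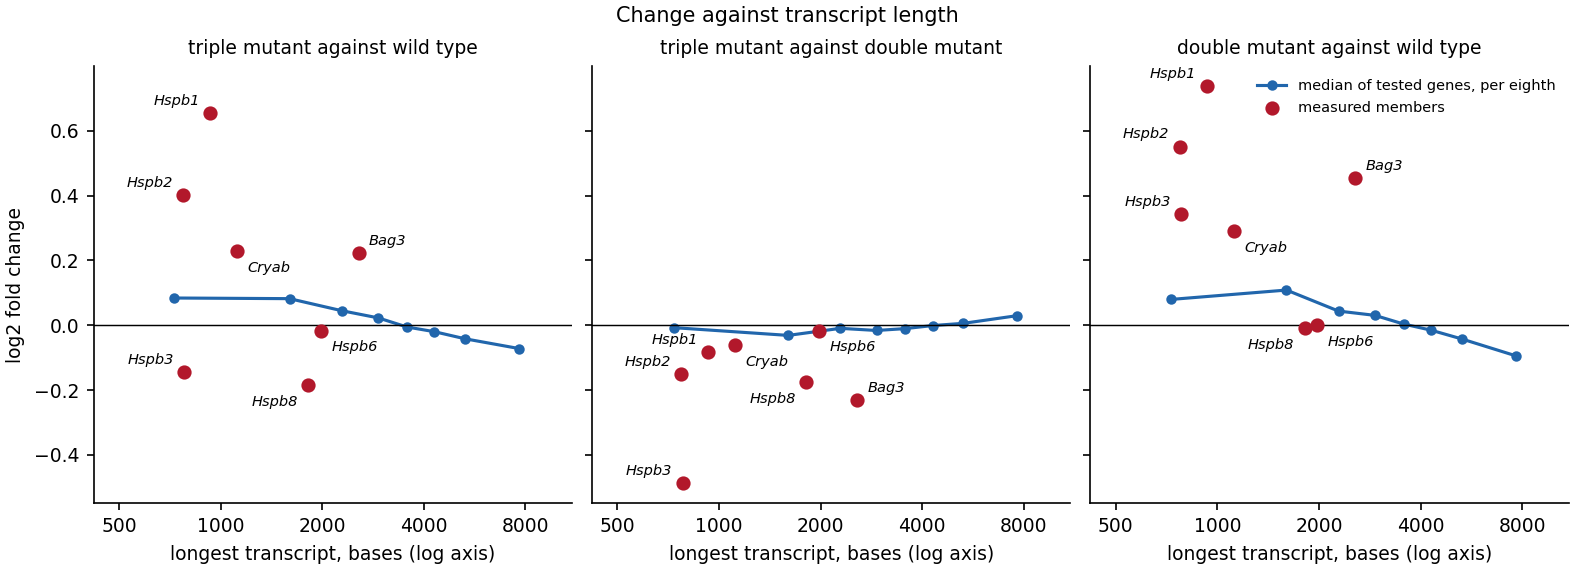
Log2 fold change (y axis) against the longest GENCODE M21 transcript in bases (log x axis) for the 7 measured genes (red) and the median of all tested genes in each of 8 length classes (blue). In both comparisons with wild type the blue line runs downward with length from the second class on, and Hspb1 (930 bases) lies well above it at 0.65 and 0.74.

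Cardiomyocyte markers are the second such feature. Of 14, 12 are flagged as too abundant for an estimate. They are listed at 0, save for a wild type FPKM of 1855 for Tnni3, which was not tested. The 2 measured in every group, Myoz2 and Cox6a2, both lie in shared loci. They had a summed FPKM of 553.9 in the triple mutant, 641.7 in the double mutant and 499.9 in wild type. Myoz2, a Z-disc protein, had an FPKM of 417 in the triple mutant, 488 in the double mutant and 382 in wild type. Their median log2 fold change was 0.17 in triple against wild type, -0.20 in triple against double and 0.37 in double against wild type, with 0 Cuffdiff calls and 2 unadjusted p-values under 0.05 in double mutant against wild type, and subtracting it left medians of 0.052, 0.049 and -0.027 for the 7 genes. In these bulk samples fewer cells of a type and less RNA per cell cannot be told apart.

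Markers of other cells were read as lists, with medians given for triple mutant over wild type, triple over double mutant and double mutant over wild type in that order. All 8 skeletal muscle markers were too low to be tested (at most 0.992, for Tnni2), as were 3 of 5 atrial markers, Myl7, Sln and Bmp10. The tested genes of the atrial list, Myl4 and Nppa, both in shared loci, differed in direction against wild type. Whether their transcripts came from atrial cells was not tested. Myl7, Sln and Bmp10 had an FPKM of at most 0.137, 0.190 and 0.409. Myl4 had an FPKM of 9.88 in the triple mutant, 7.95 in the double mutant and 7.30 in wild type, without a call. Nppa had 829 in the triple mutant, 505 in the double mutant and 919 in wild type, and was called higher in triple than double mutant and lower in double mutant than wild type.

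Of 4 tested smooth muscle markers (medians 0.16, 0.30 and -0.28), Acta2 was called higher in triple than double mutant. It had an FPKM of 254 in the triple mutant, 169 in the double mutant and 199 in wild type. Myh11 had only 2.93, 2.56 and 3.20 in that order, and 2 further markers were too low to be tested. All 4 tested changes were positive in triple over double mutant. In triple mutant over wild type 2 of 4 were positive, and in double mutant over wild type 1 of 4. The remaining lists held no call in any comparison. The 6 tested fibroblast markers had medians of -0.075, -0.30 and 0.18, and 4 of them had an unadjusted Cuffdiff p-value under 0.05 in triple against double mutant. Col1a1, the highest of them and in a shared locus, had 163 in the triple mutant, 218 in the double mutant and 183 in wild type. The 8 endothelial markers had medians of -0.29, -0.23 and -0.076, with 7 of 8 negative in triple mutant over wild type, and Cdh5 had 188 in the triple mutant, 218 in the double mutant and 204 in wild type.

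The macrophage and erythroid lists were mixed. The 4 tested macrophage markers had medians of -0.028, -0.048 and 0.16. C1qa had an FPKM of 11.1 in the triple mutant, 13.4 in the double mutant and 12.1 in wild type, while C1qb had 7.18, 5.73 and 8.34, so that they differed in direction in triple over double mutant and in double mutant over wild type. The 3 tested erythroid markers had medians of -0.22, -0.016 and -0.044. Hbb-b1 had 212 in the triple mutant, 215 in the double mutant and 171 in wild type, whereas Hba-a1 had 119, 134 and 139 and Alas2, in a shared locus, 16.5, 16.1 and 23.1 in that order of groups, so that Hba-a1 and Alas2 stood lower in each mutant than in wild type, where Hbb-b1 stood higher, none of them called.

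Sex and the mutated genes complete the checks. Ddx3y, a Y-linked gene, had an FPKM of 10.02 in the triple mutant, 13.99 in the double mutant and 4.82 in wild type and was called higher in each mutant, the order of groups being that of Hspb1 and Bag3, and sex and genotype cannot be told apart because the labels do not give the sex. Nkx2-5 had 55.2, 53.1 and 43.6 in the triple mutant, the double mutant and wild type, Mkl2 (a shared locus) had 26.004, 30.6 and 30.9, neither was called, and Myh7 is listed at 0 as too abundant. Transcript level may be untouched by an altered allele, and these values therefore leave the labels unchecked.

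The genes whose pattern lay nearest to Hspb1 and to Bag3 were sought among the 5917 genes whose FPKM was at least 10 in each group. Likeness was the distance over the log2 fold changes of triple and double mutant against wild type, so it rests on 3 group values. Nearest to Hspb1 were Gm12696 (distance 0.026), the RNA polymerase II subunit gene Polr2c in a shared locus (0.028) and Minos1, a component of the mitochondrial contact site complex (0.045). Gm12696 and Minos1 were called in each mutant against wild type, and Polr2c in neither (Cuffdiff q = 0.119 for the triple and 0.0511 for the double mutant). Nearest to Bag3 were Tet1 (0.013) and C030046I01Rik (0.014), both in shared loci, and the glucocorticoid-induced leucine zipper gene Tsc22d3 (0.017). Unlike Bag3, none of these was called in double mutant against wild type (Cuffdiff q = 0.401, 0.137 and 0.0546). Minos1 was far more abundant than Hspb1, with an FPKM of 341 in the triple mutant, 349 in the double mutant and 210 in wild type.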

How the data were processed

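RNA from 8 ventricles was sequenced. The submitters' processing notes name the build mm9 and the tools Cuffdiff 2.2.1, Cufflinks 2.2.1, STAR 2.5.2 and CASAVA 1.8, with no roles. For the annotation, the settings and the libraries entered per group, the answer is not given in the sources used here. Per the file headers, the authors deposited 1 FPKM per gene and group, a log2 fold change, a test statistic (a score), a p-value and a q-value for each of 3 comparisons. The deposited log2 fold change is the plain ratio of the FPKM values, and adjusting the deposited p-values by Benjamini-Hochberg over the tested rows of the 3 comparisons together returned the q-values (largest difference 5.26442e-07). Nothing says that samples came from separate litters, and the libraries entered per group are unknown. What spread the p-values measure is therefore not known, and they cannot be read beyond these samples.

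No values per sample exist in the file, so no new test across samples was fitted. Intervals are the log2 fold change ± the 95% normal quantile times the standard error implied by the deposited statistic (median 0.404 to 0.407), while the deposited p-values imply 0.221 to 0.224. Starts in the file count from 0, and 1 was added. Transcript lengths came from GENCODE M21 by Ensembl ID (32900 of 37982 genes). Named genes were all 8 members, list genes called in any comparison, the most abundant genes of each list (2 for pathway lists, 1 for cell markers) and the 3 likest genes of each called member. Hspa1b, Cryaa, Odf1, Hspb9, Hspa8, Map1lc3b, Myl7, Sln, Bmp10, Myl4, Cox6a2, Tnni3, Myh11, C1qb, Hba-a1, Alas2, Ddx3y and the mutated genes were added after their values were seen. Members and lists were chosen with earlier results of these data known. Benjamini-Hochberg code was tested on simulated data. Python 3.11.15 with pandas 2.3.3 and scipy 1.17.1 was used.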

Additional observations from a re-analysis of the deposited data

How the results depend on the processing

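The count of members called was the same under the authors' q-value mark of 0.1, adjustment within each comparison, an FPKM minimum of 5 and removal of the shared Hspb6 locus: 1 in triple mutant against wild type, 0 in triple against double mutant and 2 in double mutant against wild type. Over all tested genes 1.52%, 1.25% and 2.65% were called at q under 0.05, and 2.75%, 1.98% and 4.41% at the mark of 0.1. That share was not computed for the remaining settings. With p-values taken from the deposited statistic, an alternative chosen after seeing the data, the count of members called was 0 in each comparison. There 0.0385%, 0.0313% and 0.0691% of all tested genes were called, so a count of 0 says little about the members. The median log2 fold change of the members ranged from 0.052 to 0.22, from -0.15 to 0.049 and from -0.027 to 0.35 over the alternatives, in the same order of comparisons. The extremes 0.052, 0.049 and -0.027 came from subtracting the median of the 2 measured cardiomyocyte markers, which turned the sign in triple against double mutant and in double mutant against wild type; the cause was not tested. Hspb6 in double mutant against wild type changed sign to 0.0028 once the median of all tested genes was subtracted. No replicate could be left out, and no paired analysis was possible because the file holds 1 value per group. No depth or replicate spread is known.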
